A study of Rattus norvegicus with 2 samples.

Results

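The predicted miRNAs of rat hippocampus were the rows of the deposited count table whose names begin with novel_mir, that is, small RNAs that the authors inferred from their reads and that are not in the known rat set. They made up 62 of the 390 rows of the table, and the remaining 328 rows were known miRNAs. All rows of that name were taken, whatever their counts. Small RNA was sequenced from 1 pooled library per group. The experimental group consisted of male Wistar rats, aged 5 months according to the labels, in which status epilepticus (SE, a continuous seizure that does not stop by itself) followed electrical stimulation of the right lateral amygdala, given over 20 min and extended to at most 40 min where seizures had not set in, and whose hippocampus was taken 24 hours later. The control group consisted of Wistar rats of the same age with the same electrode surgery, which were sham stimulated without current. RNA came from the left hippocampus, on the side opposite to the electrode, after perfusion with saline, and the rats of both groups had recovered from surgery for 10 days. The study had 6 rats per group, but the number of rats in each pool is not stated in the sources used here, so that the libraries carry no information on the spread between animals. No difference below therefore has a replicate check.

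A miRNA is cut from a longer transcript that folds back into a hairpin. Drosha frees the hairpin in the nucleus, Dicer removes its loop in the cytoplasm, and 1 strand of the resulting duplex is loaded into an Argonaute protein, where bases near its 5′ end pair with target mRNAs and lower their translation or stability. Programs that predict miRNAs from sequencing look for reads that pile up on a stretch of genome able to fold into such a hairpin. Reads of other RNA classes can pass such a search, and a predicted miRNA is therefore a candidate until its hairpin and its processing have been examined. The sequences, hairpins and genome positions of the 62 predicted miRNAs were not analysed here, and they are known below by name and read count. Several of them could be copies, arms or relatives of each other or of known miRNAs, and reads of near-identical sequences could have been split between rows or counted on more than 1.

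The counts of the whole table summed to 5678090 in the experimental library and 6703056 in the control library, or 78.4% and 76.7% of the clean reads. Levels are given as CPM, the count of a row per 1000000 clean reads of its library. A single count was worth 0.138 CPM in the experimental library against 0.114 CPM in the control library. Of 4 miRNAs known as abundant in brain and looked for by name, 3 were found among the rows (miR-124-3p, miR-128-3p and miR-138-5p). Together they reached 37521 and 44504 CPM. The liver miRNA miR-122-5p was at 16.8 and 10.6 CPM, and the red blood cell pair miR-451-5p and miR-144-3p at 28.7 and 13.0 CPM. Of 3 leukocyte miRNAs looked for by name, 1 was found, miR-142-5p, at 29.3 and 28.5 CPM. The muscle pair miR-1-3p and miR-133a-3p was at 142 and 168 CPM.

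The predicted miRNAs took a small share of the reads. They summed to 75029 counts in the experimental group, or 1.32% of the table (95% exact Clopper-Pearson interval 1.31 to 1.33), and to 78727 counts in the control group, or 1.17% (interval 1.17 to 1.18). These sums correspond to 10361 and 9011 CPM. The log2 ratio of the experimental over the control group was 0.20 for the sum (95% interval 0.19 to 0.22), beside 0.03 for the sum of the known miRNAs. The intervals in this text cover counting error only, because reads were amplified by PCR without molecular tags and no animal was sequenced on its own. The size of the ratio depended on the scaling, and TMM library sizes from edgeR gave 0.022. Unscaled counts, which leave the greater depth of the control library uncorrected, gave -0.07. In pooled tissue, fewer cells of a type and less of the RNA per cell cannot be told apart.

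A total of 49 predicted miRNAs had counts in the experimental library against 45 in the control library, and 32 had counts in both. The other 30 had counts in a single library, which held for 7.95% of all 390 rows. Most predicted miRNAs were rare. The median count of the rows with any counts was 17 in the experimental library against 23 in the control library, while it was 129 and 131.5 for known miRNAs. At least 30 counts were reached by 17 rows in the experimental group and by 20 in the control group. By the larger of its counts, 40 of the 62 predicted miRNAs (64.5%) stayed under 30, compared with 65 of the 328 known ones (19.8%). In the plot of levels in the 2 libraries the rows with counts in both lie along the line of equal CPM, and the others lie along the edges.

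**Figure D1:**
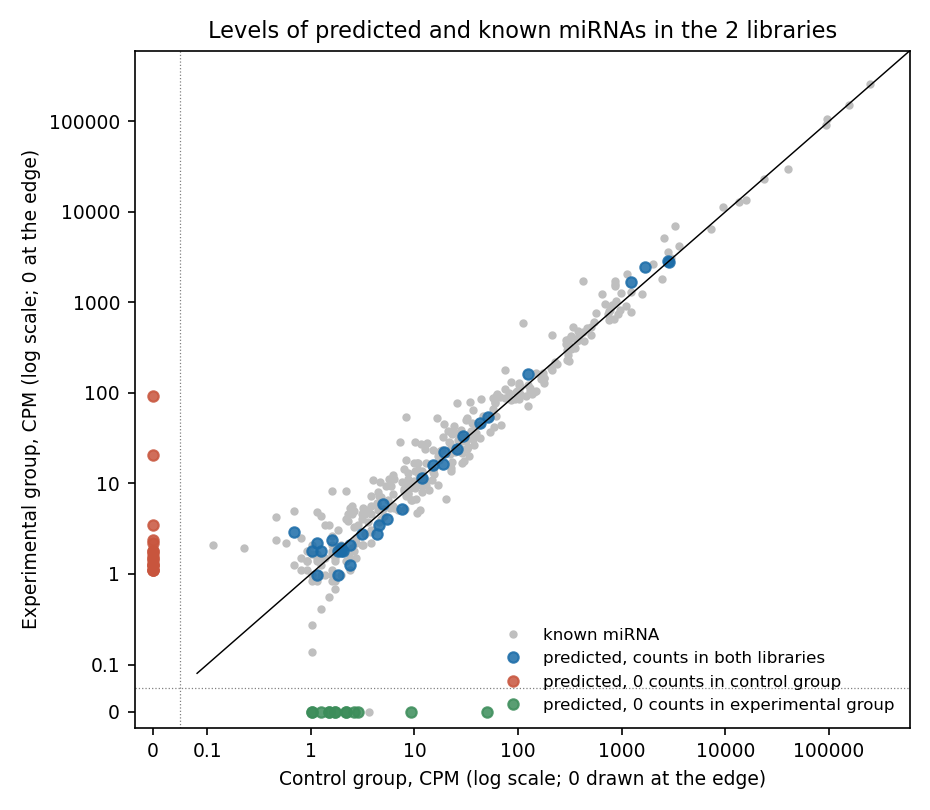
Level of each miRNA in the control group (x axis) and the experimental group (y axis), in counts per 1000000 clean reads on log scales, 1 point per row of the table; rows with 0 counts in a library are drawn at the edge and the line marks equal levels. The 32 predicted miRNAs with counts in both libraries follow the line among the known miRNAs, while 17 lie on the left edge and 13 on the lower edge.

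A set of 4 rows held nearly all the reads. novel_mir_20, novel_mir_55, novel_mir_19 and novel_mir_61 together had 70892 counts in the experimental library against 74629 in the control library, which is 94.5% and 94.8% of all predicted counts. The remaining 58 rows shared 4137 and 4098 counts. The lowest of the 4 by mean level, novel_mir_61, was 10.1-fold above the next row, novel_mir_15.

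novel_mir_20 had 20434 counts in the experimental library against 24737 in the control library, or 2822 and 2831 CPM. It ranked 17 and 14 among the 390 rows, close to the known miR-320-3p in the first library and miR-221-3p in the second. Its log2 ratio was -0.0049 (95% interval -0.03 to 0.02), a level that did not differ between the libraries beyond counting error with the clean reads as depth.

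novel_mir_55 had 20463 and 24400 counts, or 2826 and 2793 CPM, with a log2 ratio of 0.02 (interval -0.01 to 0.04). Its counts were almost those of novel_mir_20. The rows differed by 29 counts in the experimental group, where the standard deviation of such a difference from Poisson counting is 202, and by 337 counts in the control group, where it is 222. A count of 1000 or more in both libraries was reached by 77 rows of the table, which form 2926 pairs. Of these, 9 pairs were as close as 2 such standard deviations in both libraries, and this was the only pair of predicted miRNAs among them. Whether novel_mir_20 and novel_mir_55 share reads was not tested, and they cannot be taken as independent observations.

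novel_mir_19 had 17926 counts in the experimental library against 14792 in the control library, or 2475 and 1693 CPM. Its level was 1.46-fold higher in the experimental library, a log2 ratio of 0.55 (95% interval 0.52 to 0.58). novel_mir_61 had 12069 and 10700 counts, or 1667 and 1225 CPM, and was 1.36-fold higher, with a log2 ratio of 0.44 (interval 0.41 to 0.48).

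The contrast within the 4 abundant rows does not depend on how the libraries are scaled, because each pair was counted in the same libraries. The log2 ratio of novel_mir_19 exceeded that of novel_mir_20 by 0.55 (95% interval 0.51 to 0.59) and that of novel_mir_55 by 0.53 (interval 0.49 to 0.57). That of novel_mir_55 was below that of novel_mir_61 by 0.43 on the log2 scale (-0.43, interval -0.47 to -0.38). The difference between novel_mir_19 and novel_mir_61 was smaller, at 0.10 (interval 0.05 to 0.15), and that between novel_mir_20 and novel_mir_55 was -0.02 (interval -0.06 to 0.02). The 4 rows thus formed a pair that was about level and a pair that was higher in the experimental library. With TMM library sizes from edgeR, novel_mir_20 was at -0.18 and novel_mir_55 at -0.16, both with intervals below 0, and novel_mir_19 and novel_mir_61 were still higher, at 0.37 and 0.26.

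Across the 32 predicted miRNAs with counts in both libraries, the median log2 ratio was -0.01, with 15 rows above 0 and 17 below. The median was 0.10 over the 327 known miRNAs with counts in both libraries and 0.09 over all 359 such rows. The quartiles of the predicted ratios were -0.20 and 0.30, and 22 of the 32 were within 0.5 of 0 in either direction. Their standard deviation was 0.57, compared with 0.735 for the known miRNAs. Across these rows log2 CPM in the 2 libraries correlated with r = 0.987 (Pearson) and rho = 0.910 (Spearman). These values describe rows of the same 2 libraries, share their depth, and rest partly on the wide range of levels.

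A log2 ratio above 1 was seen in 1 of the 32 predicted miRNAs, novel_mir_63, while 10% of all rows with counts in both libraries passed that limit. A ratio below -1 was seen in 0 of the 32, beside 3.06% of all such rows. The 95% interval lay above 0 for 4 predicted miRNAs (33.7% of all rows with counts in both libraries) and below 0 for 0 of them (17.5% of all such rows). The 4 were novel_mir_19, novel_mir_61, novel_mir_15 and novel_mir_63. The intervals of the other 28 included 0. An assumed coefficient of variation between samples of a group was also put into edgeR's exact test. At 0.2 the test gave an unadjusted p under 0.05 for 1 of the 4, novel_mir_63, and at 0.4 for none of them. The share of all rows with such a p was not computed, so these counts have no background. The count of lower rows moved with the scaling, to 5 with TMM library sizes and 7 with unscaled counts, while the higher rows numbered 4 and 3. The known miRNAs moved as well. Of 327 known rows, 94 lay below 0 and 83 above with TMM, and 113 below and 68 above with unscaled counts. The width of an interval also depends on the counts of a row, and the part of this was not tested. With clean reads as depth and a larger count under 30, 1 of 14 predicted intervals lay above 0 and 0 below, against 7 and 1 of 65 known ones. From 30 to below 100 these were 0 and 0 of 5, against 23 and 4 of 73. At 1000 and more they were 3 and 0 of 5, against 40 and 36 of 83. The range between is given below.

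**Figure D2:**
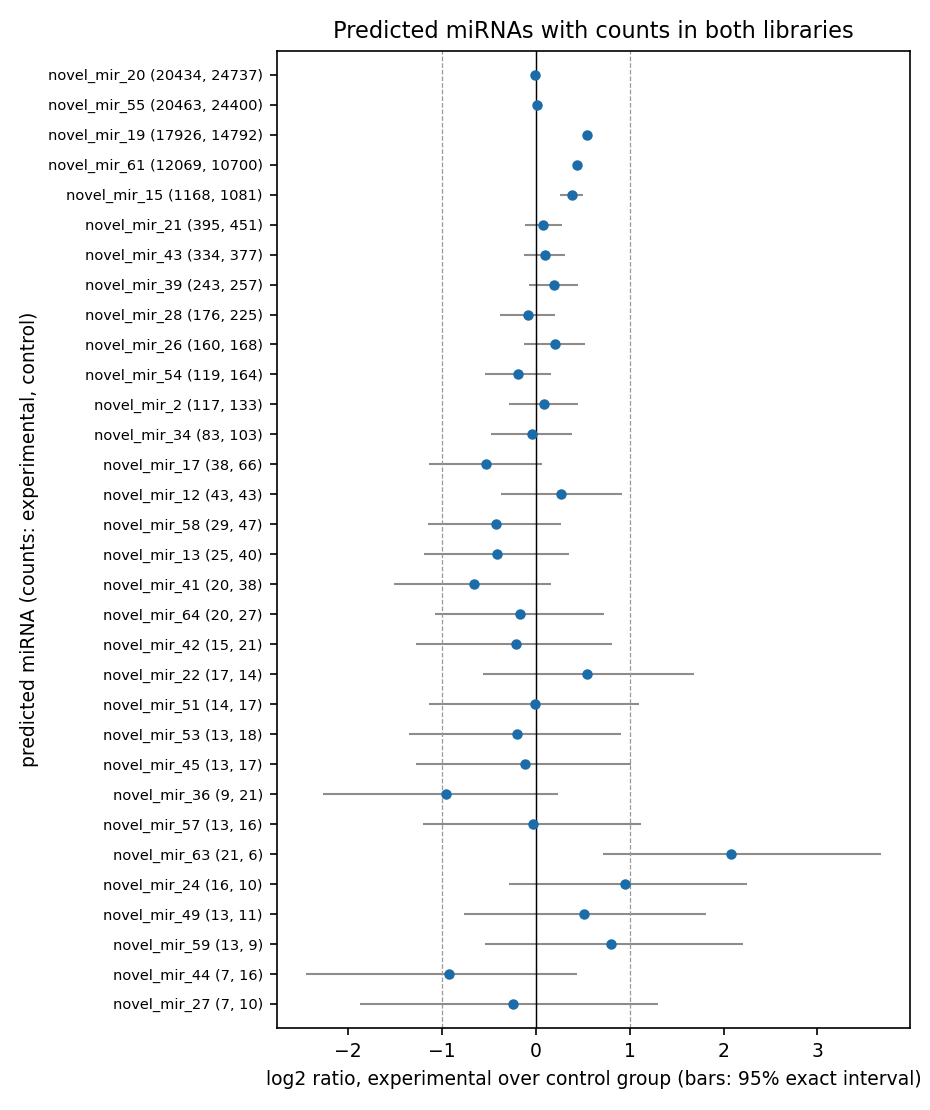
log2 ratio of the experimental over the control group (x axis) for the 32 predicted miRNAs with counts in both libraries, ordered from the most abundant at the top, with the counts of the experimental and the control group beside each name; points are ratios per clean read, bars are 95% exact intervals of counting error, and dashed lines mark -1 and 1. The intervals of 4 rows lie to the right of 0, and the bars widen toward the rare rows at the bottom.

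novel_mir_15, the fifth by abundance, had 1168 counts in the experimental library against 1081 in the control library, or 161 and 124 CPM. It was 1.30-fold higher, with a log2 ratio of 0.38 (95% interval 0.26 to 0.50). With unscaled counts its interval reached from -0.01 to 0.23 and included 0.

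The 8 predicted miRNAs with counts in both libraries and a larger count from 100 to below 1000 were close to equal in the 2 libraries. Their log2 ratios ranged from -0.19 to 0.20 with a standard deviation of 0.14, and all 8 intervals included 0. These values leave out 1 row of this range with 0 counts in the experimental group and 2 with 0 counts in the control group. Those rows are described below, and 0 known miRNAs of this range were left out. novel_mir_21 had 395 counts in the experimental library against 451 in the control library, with a log2 ratio of 0.08 (interval -0.12 to 0.28). novel_mir_43 had 334 and 377 counts (log2 ratio 0.10, interval from -0.12 to 0.31).

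For novel_mir_39 the counts were 243 and 257, with a log2 ratio of 0.19 (interval -0.07 to 0.45). For novel_mir_28 they were 176 and 225, with a log2 ratio of -0.08 (interval -0.38 to 0.21). The log2 ratio of novel_mir_26 (160 and 168 counts) was 0.20, with an interval from -0.12 to 0.52. The other 3 were novel_mir_54 (119 and 164 counts), novel_mir_2 (117 and 133) and novel_mir_34 (83 and 103). At this depth a change as large as 1 on the log2 scale lay outside each of the 8 intervals. Among the 106 known miRNAs with counts in both libraries and a larger count in the same range, the standard deviation was 0.65, and 47 intervals lay above 0 and 22 below. With TMM library sizes 1 of the 8 predicted intervals lay below 0, and with unscaled counts 2 did. Of the 106 known intervals, 34 lay below 0 and 35 above with TMM, and 42 below and 28 above with unscaled counts.

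Counts in both libraries and a larger count from 30 to below 100 were found for 5 predicted miRNAs. They were novel_mir_17 (38 counts in the experimental library against 66 in the control library), novel_mir_12 (43 and 43) and novel_mir_58 (29 and 47). The list ends with novel_mir_13 (25 and 40) and novel_mir_41 (20 and 38). The log2 ratios of these 5 ranged from -0.66 to 0.27, and each interval included 0. The 14 rows with counts in both libraries and fewer than 30 in each had ratios from -0.95 to 2.08. Their intervals reached between 0.90 and 1.59 from the centre to either end. A change of 1.5-fold was therefore not detectable in any single one of them. On the higher side were novel_mir_24 (16 and 10 counts), novel_mir_59 (13 and 9), novel_mir_22 (17 and 14) and novel_mir_49 (13 and 11), with intervals that included 0. Ratios nearer to 0 were found for novel_mir_64 (20 and 27 counts), novel_mir_42 (15 and 21), novel_mir_53 (13 and 18), novel_mir_45 (13 and 17), novel_mir_51 (14 and 17) and novel_mir_57 (13 and 16).

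novel_mir_63 was the row of this rare class that stood outside counting error. It had 21 counts in the experimental library against 6 in the control library, or 2.90 and 0.687 CPM, a ratio of 4.22, which is 2.08 on the log2 scale (95% interval 0.72 to 3.68). It did not enter the screen that the study used, which asks for at least 30 counts in either library. At the opposite end, novel_mir_36 had 9 and 21 counts (log2 ratio -0.95, interval from -2.26 to 0.24), and novel_mir_44 had 7 and 16 counts (log2 ratio -0.92, interval from -2.45 to 0.44). The rarest row of this class, novel_mir_27, had 7 and 10 counts (log2 ratio -0.24, interval from -1.87 to 1.30).

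The rows with 0 counts in 1 library were described apart, since no ratio can be formed for them without a floor. A count of 0 was replaced by 3 counts in that library. This floor is 0.414 CPM in the experimental library against 0.343 CPM in the control library. Each fold below is taken against this floor and is not the smallest fold that counting error allows. The end of the counting interval nearer to equal levels is smaller and is given with it. The sources used here do not say whether miRNAs were predicted and counted apart in each library. If they were, a 0 would mean that a miRNA was not called there and not that its reads were counted as 0. In that case neither the folds nor the interval ends would hold. They hold only if the zeros are read counts. There were 17 predicted miRNAs with 0 counts in the control group (4.36% of all 390 rows had 0 counts there) and 13 with 0 counts in the experimental group (3.59% of all rows). The 17 rows summed to 996 counts, or 1.33% of the predicted counts of the experimental group, and the 13 rows to 692 counts, or 0.879% of those of the control group.

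**Figure D3:**
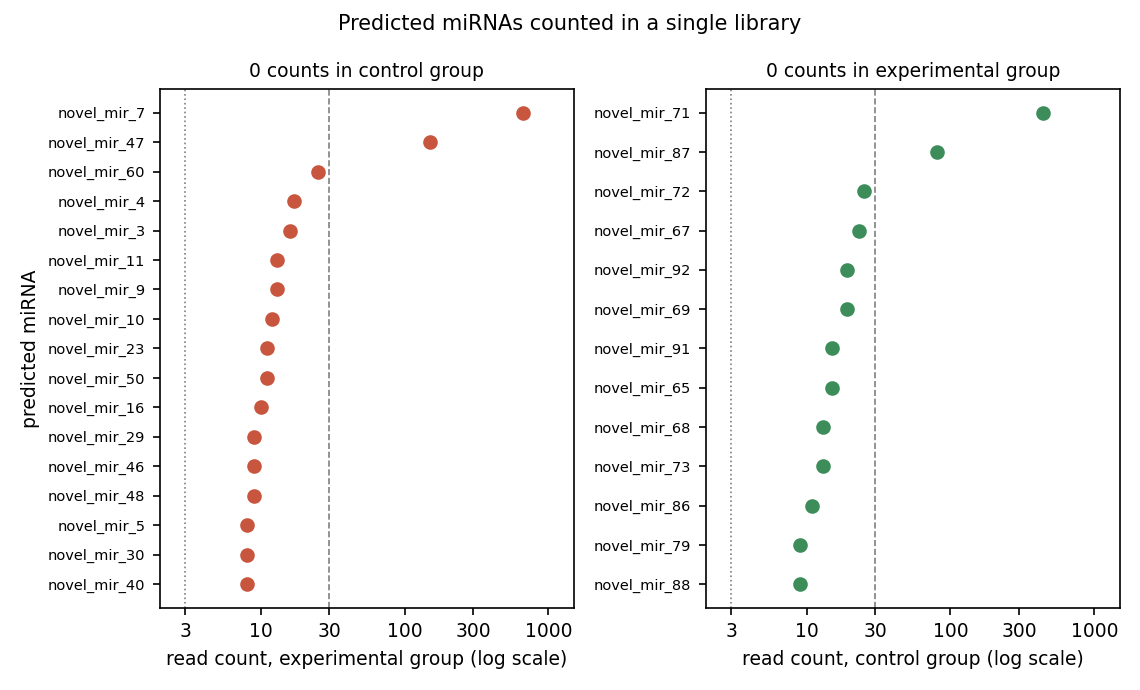
Read counts (x axis, log scale) of the 30 predicted miRNAs with counts in a single library, with the 17 that had 0 counts in the control group on the left and the 13 that had 0 counts in the experimental group on the right; the dotted line marks the floor of 3 counts and the dashed line the minimum of 30. In each panel 2 rows lie to the right of the dashed line and the others lie between 8 and 25 counts.

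In the experimental group novel_mir_7 had 667 counts, or 92.1 CPM, and ranked 99 in that library. It had 0 counts in the control group. Read as a count, this put it 268-fold higher in the experimental library against the floor, with a lower end of the counting interval at 218-fold. This row alone held 67.0% of the counts of its class. novel_mir_47 had 150 and 0 counts, or 20.7 CPM in the experimental group, and was 60.3-fold higher against the floor (lower end of the interval 48.5-fold).

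In the control group novel_mir_71 had 440 counts, or 50.4 CPM, and ranked 116 in that library. Its 0 in the experimental group, read as a count, put it 122-fold lower there against the floor. The nearer end of the counting interval was at 98.4-fold. It held 63.6% of the counts of its class. novel_mir_87 had 81 counts in the control group, or 9.27 CPM, and 0 in the experimental group. It was 22.4-fold lower against the floor (nearer end of the interval 17.8-fold).

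These 4 rows were the predicted miRNAs that passed the limits of the screen, namely 30 counts or more in a library, a log2 ratio over 2 or under -2, and p under 0.01 without adjustment. The study also asked for a P other than 0, a condition left out here. The p came from Fisher's exact test (two-sided) on the reads, which compares these 2 libraries and not the conditions. The passing rows were 2 higher ones (2.31% of all 390 rows passed as higher) and 2 lower ones (0.769% of all rows passed as lower). Of the 32 rows with counts in both libraries 0 passed. Each predicted miRNA that passed thus had 0 counts in the other library. Again 2 rows passed as higher and 2 as lower with an assumed coefficient of variation of 0.4 between samples in edgeR's exact test. Like the folds, both tests take the zeros as read counts and hold only on that reading. They therefore lend these rows no further support. With a minimum of 10 counts in place of 30, 12 passed as higher and 8 as lower. The share of all rows was computed neither at that minimum nor for edgeR's test, so these counts cannot be read as a trait of predicted miRNAs. Among these rows novel_mir_63, with 21 and 6 counts, had counts in both libraries. The others had a 0 that was set to the floor.

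The other 26 rows counted in a single library were rare. The 15 rows with 0 counts in the control group had between 8 and 25 counts in the experimental group. Against the floor they were 3.22-fold to 10.1-fold higher, and the lower ends of their counting intervals ranged from 2.06-fold to 7.59-fold. The highest was novel_mir_60, with 25 counts (3.45 CPM), followed by novel_mir_4 with 17 and novel_mir_3 with 16. Between 9 and 13 counts were reached by novel_mir_9 and novel_mir_11 (13 each), novel_mir_10 (12), novel_mir_23 and novel_mir_50 (11 each), novel_mir_16 (10), and novel_mir_29, novel_mir_46 and novel_mir_48 (9 each). The lowest were novel_mir_5, novel_mir_30 and novel_mir_40, each with 8 counts (1.10 CPM).

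The 11 rows with 0 counts in the experimental group had between 9 and 25 counts in the control group. Against the floor they were 2.49-fold to 6.91-fold lower, and the nearer ends of their counting intervals ranged from 1.64-fold to 5.21-fold. They were led by novel_mir_72 with 25 counts (2.86 CPM) and novel_mir_67 with 23. novel_mir_69 and novel_mir_92 had 19 counts each, novel_mir_65 and novel_mir_91 had 15, novel_mir_68 and novel_mir_73 had 13, and novel_mir_86 had 11. The rarest were novel_mir_79 and novel_mir_88, each with 9 counts (1.03 CPM). Each row of the table had over 1 CPM in a library, so that these rows are listed through the library in which they were counted.

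Predicted miRNAs were either counted several times in a library or not counted at all. None of the 62 had 1 to 5 counts in the lower library, and the smallest count other than 0 was 6. Among known miRNAs 10 had 1 to 5 counts in the lower library and 1 had 0. Of the 40 predicted miRNAs whose larger count was under 30, 26 (65.0%) had a 0, and of the 65 known miRNAs in the same range 0 did. For larger counts from 30 to below 100, 1 of 6 predicted miRNAs (16.7%) had a 0, and 1 of 74 known ones (1.35%) did. For larger counts from 100 to below 1000, 3 of 11 predicted miRNAs (27.3%) had a 0, and 0 of 106 known ones did. None of the 5 predicted miRNAs with 1000 counts or more had a 0.

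The names moved with the libraries. The 17 rows with 0 counts in the control group carried numbers from 3 to 60, and the 32 rows with counts in both libraries numbers from 2 to 64. The 13 rows with 0 counts in the experimental group carried numbers from 65 to 92. Each of the 13 rows numbered above 64 had 0 counts in the experimental group, and each of the 49 rows numbered up to 64 had counts there. The part of this numbering, and of how miRNAs were predicted in each library, in the counts of 0 was not tested. Within a class, Spearman's rho between number and larger count was -0.28 over the 32 rows, -0.20 over the 17 and -0.20 over the 13, which describes names and not biology.

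**Figure D4:**
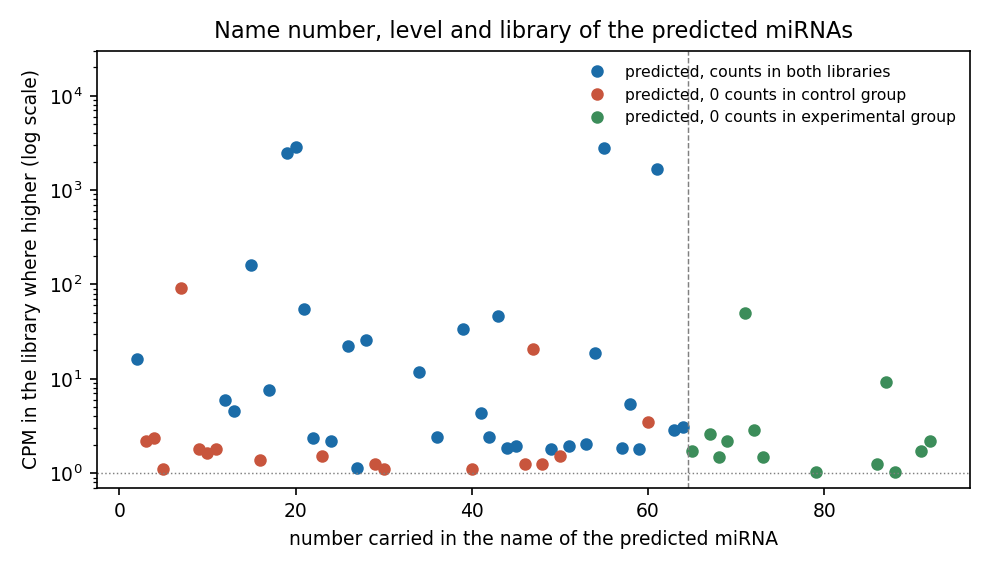
Level of each predicted miRNA in the library where it was higher (y axis, counts per 1000000 clean reads, log scale) against the number in its name (x axis), 1 point per row; the dashed vertical line separates numbers up to 64 from higher ones and the dotted line marks 1 CPM. The 13 rows with 0 counts in the experimental group fill the right part alone, and each of the 62 rows lies above the dotted line.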

How the data were processed

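Small RNA reads of 18 to 30 bases from 1 pooled hippocampal library per group were counted by the authors, who deposited whole-number read counts per miRNA without scaling (the header text mentions normalized signal, but the values are whole). A further 2 columns deposited by the authors hold p-values, which were not used. The build named in the submitters' processing notes is rn5. The aligner, the counting and the prediction program are not given in the sources used here, and the labels' extraction text describes an array preparation, for which the paper's sequencing methods were followed.

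Counts were divided by the clean reads the study gives for each library (CPM, per 1000000). Ratios are the experimental over the control group, counts under 3 were set to 3, and 95% intervals are exact Clopper-Pearson intervals of a row's reads, except differences between rows, which used a normal approximation on the log2 scale. The screen used Fisher's exact test (two-sided, unadjusted p under 0.01) over all 390 rows. With 1 library per group no test of the conditions was possible. Named rows were the 10 most abundant with counts in both libraries, those with a log2 ratio beyond 1, those with 0 counts in 1 library and at least 30 in the other, and the extremes of each class, and other rows were given by their counts. novel_mir_36 and novel_mir_44, the rows with the lowest ratios, were given full values after these had been seen. The members, lists and alternatives were chosen with earlier results of these data known. Intervals and screen were tested on simulated data with Poisson counting error only, so that variation between animals or from PCR was not covered. Scalings and assumed-variation tests used edgeR 4.0.16 and DESeq2 1.42.0 under R 4.3.3, and the remainder used scipy 1.17.1 and pandas 2.3.3 under Python 3.11.15.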

Additional observations from a re-analysis of the deposited data

How the results depend on the processing

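No paired analysis was possible because a single pooled library stands for each group, and no replicate could be left out. The scalings shift every log2 ratio alike, by -0.03 with the sums of the table or of the known miRNAs, -0.09 with DESeq2's size factors, -0.18 with edgeR's TMM and -0.27 unscaled. The log2 ratio of the summed predicted counts was 0.17 with the sums of the table (0.170) or of the known miRNAs (0.172). It was 0.11 with size factors, 0.022 with TMM, -0.069 unscaled and 0.29 without novel_mir_20. Its size thus depended on the scaling, and it fell below 0 only where depth was left uncorrected. With 1 library per group its direction has no replicate check. The median ratio of the 32 rows was -0.19 with TMM and -0.28 unscaled. Rows with a log2 ratio below -1 numbered 2 with TMM, with size factors and unscaled, and those above 1 numbered 0 with at least 30 or 100 counts. Intervals below 0 numbered 1 with the sums of the table or of the known miRNAs, 3 with size factors, 5 with TMM and 7 unscaled. Among the 327 known rows they numbered 66, 76, 94 and 113 in the same order. Rows called higher numbered 1 with an assumed coefficient of variation of 0.2 and 0 with 0.4. With at least 10 counts, or no minimum, 12 rows passed the screen as higher and 8 as lower, and with at least 100 counts 1 passed as lower. The shares of all rows were not computed at these other minimums or in the assumed-variation tests. Nor were they computed for the ratio limits of -1 and 1 under the alternatives. Rows with 0 counts in the control group numbered 2 with at least 30 or 100 counts in the other library, and those with 0 counts in the experimental group 2 and 1. Of 82 recomputed summary values 53 stayed within 1.5 times, within the interval or, for the median, within 0.1. Of 108 ratios of 18 named rows 87 stayed within their intervals, 21 moved and 0 of those outside counting error turned. Intervals of the named rows with 0 counts in 1 library are open on 1 side. A value further from 0 therefore could not count as moved for those rows.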

Other observations

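The table begins where a miRNA exceeded 1 count per 1000000 clean reads in 1 of the libraries. The lowest such level over all 390 rows was 1.03 CPM, and 0 rows lay under 1 CPM in both libraries. In the experimental group 7 counts correspond to 0.967 CPM and 8 counts to 1.10, and in the control group 8 counts correspond to 0.916 CPM and 9 counts to 1.03. The rarest single-library rows sat at these limits, with 8 counts in the experimental library against 9 in the control library. Of the 14 rows of the table between 1 and 1.2 CPM, 6 were predicted miRNAs.

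The numbers in the names run from 2 to 92, and 30 numbers between 1 and 92 are not among the rows analysed here. Of the numbers up to 64, 49 were listed and 15 were not. Of the 28 numbers above 64, 13 were listed and 15 were not.

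Within the table the predicted miRNAs stand after the known ones in a pair of blocks. The first holds 31 rows, which are the 30 with counts in a single library and novel_mir_63, and the second holds the 31 others with counts in both libraries. The log2 ratios of the second block lay between -0.95 and 0.95, so that the blocks divide the rows at a log2 ratio of 1 in size.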
